A study of Mus musculus with 6 samples.

Results

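The 9 genes described here encode proteins that hold the folds of the inner mitochondrial membrane in shape or make cardiolipin, the signature lipid of that membrane: Immt, Chchd3, Chchd6, Apoo, Apool, Crls1, Ptpmt1, Pgs1 and Tamm41. They were chosen by symbol, all 9 were found among the 27179 genes counted, and all 9 passed the filter on low counts that left 16483 genes for testing. RNA-seq was performed on quadriceps muscle from 3 control mice (Control f/f, libraries B, C and D) and 3 miDrp1KO mice (libraries A, E and F), all fed normal chow, 3 weeks post–Dnm1l deletion. In miDrp1KO mice a floxed Drp1 (Dnm1l) gene was deleted by a Cre that tamoxifen switches on (HSA-MerCreMer, under the human ACTA1 promoter of skeletal muscle). The floxed line had been backcrossed to C57BL/6J mice. The controls carried floxed alleles (flox/+ or flox/flox in the methods, f/f in the labels), and controls and knockouts alike were injected with tamoxifen at 3 months of age. Nothing in the description of the controls says that they carried the Cre. That promoter is active in muscle fibres, so the other cells of the muscle keep their Dnm1l, and each library is a mixture of both.

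Drp1 divides mitochondria, and the folds of the inner membrane, the cristae, are attached to its rim by narrow necks called crista junctions. The MICOS complex holds these junctions. It has a part built around Immt (Mic60, or mitofilin) with Chchd3 (Mic19) and Chchd6 (Mic25), and a part that contains Apoo (Mic26), Apool (Mic27), Mic10 and Mic13. Cardiolipin, on which the cristae and the respiratory chain depend, is made inside mitochondria by enzymes acting one after the other: Tamm41 makes CDP-diacylglycerol, Pgs1 turns it into phosphatidylglycerol phosphate, Ptpmt1 removes the phosphate, and Crls1 joins the product to another CDP-diacylglycerol. The question put to the data here was whether transcripts of these genes differed between miDrp1KO and control muscle.

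None of the 9 genes passed the test. With edgeR's quasi-likelihood test and Benjamini-Hochberg adjustment over the 16483 genes, 0 of 9 had an adjusted p under 0.05 and 0 of 9 an unadjusted p under 0.05, and DESeq2 and limma voom likewise called 0 of the 9 (DESeq2 gave 7 of them an adjusted p). Over all genes the same test called 2 (0.0121%), 1 higher and 1 lower (0.00607% each), and 1796 (10.9%) had an unadjusted p under 0.05, 4.68% of the tested genes being higher in miDrp1KO and 6.22% lower, so a list of 9 with none is close to that background. The median log2 fold change of the 9 genes was 0.05, with 7 values above 0 and 2 below, against a median of 0.02 over all tested genes. That median ran from 0.019 without library C (5 above 0 and 4 below) to 0.16 without library D (8 above and 1 below), and the split was also 5 to 4 in limma voom and with a correction for exonic length and GC content. In 3 of the 9 the libraries of the groups did not overlap: Immt lay lower in every miDrp1KO library, and Chchd3 and Apool lay higher. Over all tested genes the groups did not overlap in 18% (10.3% with miDrp1KO below and 7.67% with miDrp1KO above). In a comparison of 3 with 3 mice the two-sided exact permutation test cannot give a p under 0.1.

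**Figure D1:**
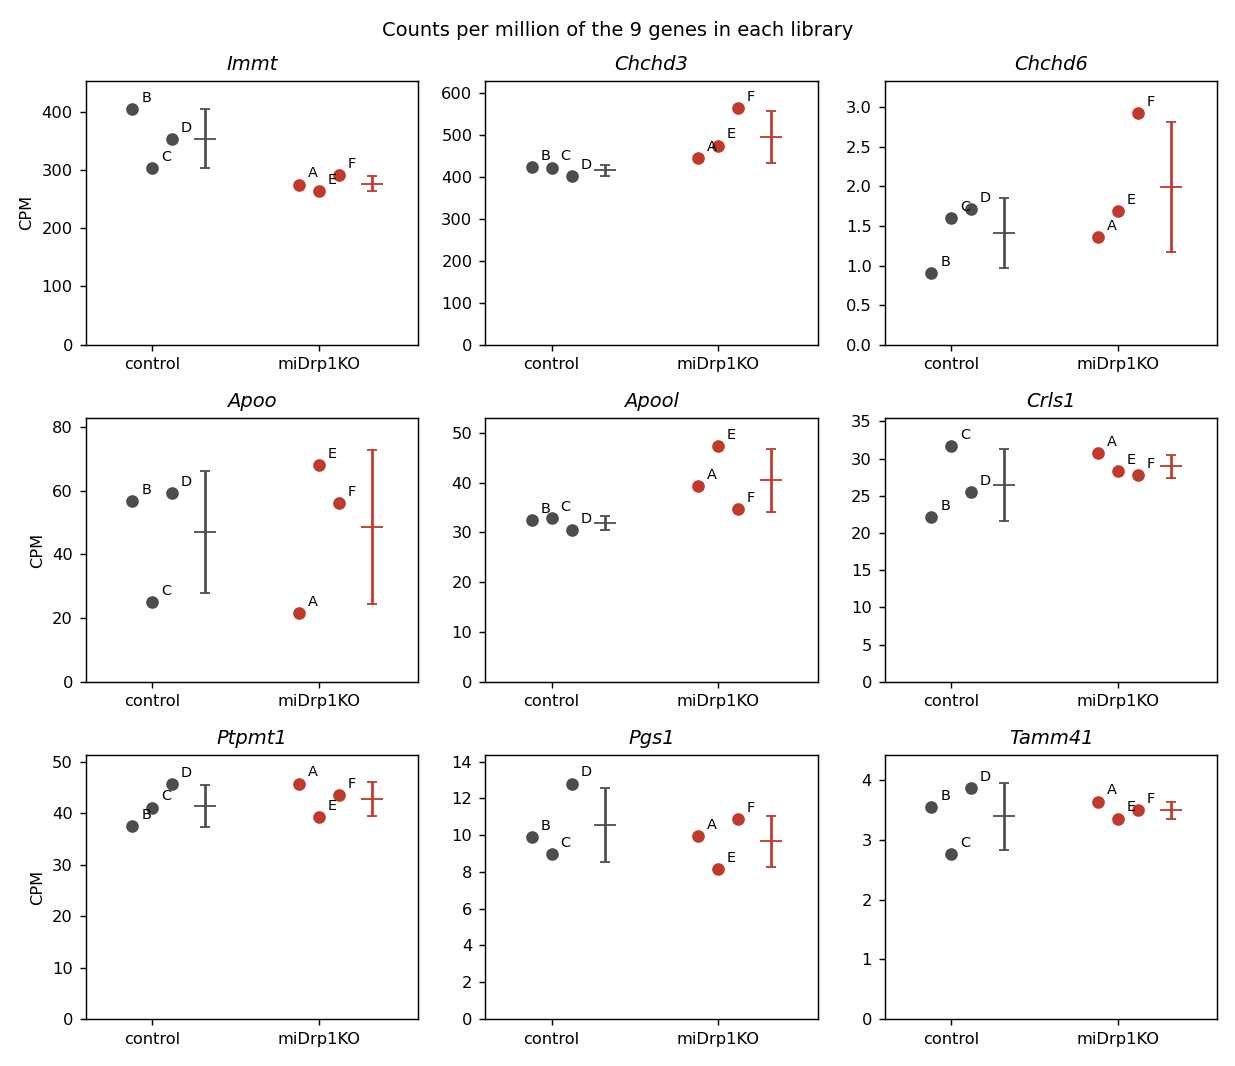
CPM (linear axis from 0) of each of the 9 genes in the 3 control (grey) and 3 miDrp1KO (red) libraries, with the library letter beside each point and the mean and SD to the right. The groups are apart for Immt, Chchd3 and Apool, and libraries C and A stand low for Apoo.

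Libraries held 13989588 (C) to 62042255 (D) counts, and ribosomal RNA genes took 1.47% (E) to 24.4% (F) of them. The deleted gene, Dnm1l, served as the check of the labels: in CPM, counts scaled to the size of each library by TMM, it was measured at 155.8, 114.0 and 140.3 in controls B, C and D against 70.6, 81.3 and 66.2 CPM in miDrp1KO A, E and F. The groups did not overlap, and the log2 fold change was -0.91 ± 0.18 (SE, n = 3 per group), with an adjusted p of 0.362 in edgeR and of 0.00534 in DESeq2. Markers of fibre types and of other cell types also differed between the groups or between single libraries. All 8 slow fibre markers had fold changes above 0 (0 of 8 at an unadjusted p under 0.05, summed level 72.9 to 479.7 CPM in controls and 99.5 to 793.5 CPM in miDrp1KO), all 8 fast fibre markers below 0 (2 of 8 at an unadjusted p under 0.05, 139100 to 157800 against 65840 to 119100 CPM), and all 7 adipocyte markers below 0 (3 of 7, 428.2 to 690.9 against 283.9 to 407.8 CPM). Of the 6 macrophage markers 4 had fold changes above 0, 2 of them at an unadjusted p under 0.05, and 2 below 0 (summed level 85.3 to 153.8 against 121.9 to 136.9 CPM). All 6 fibroblast markers (1218 to 1714 against 1347 to 2291 CPM) and all 5 Schwann cell markers (35.6 to 49.9 against 39.6 to 70.8 CPM) had fold changes above 0 and 4 of 5 endothelial markers below 0 (142.5 to 255.2 against 141.9 to 227.7 CPM), with 0 at an unadjusted p under 0.05. Of 4 blood markers, 3 lay above 0 (47.2 to 271.7 against 73.2 to 230.5 CPM, highest in B and E). The 2 tested brown adipocyte markers also lay above 0 (1.17 to 1.37 against 1.41 to 3.02 CPM), and in both lists 0 had an unadjusted p under 0.05. The fast fibre markers were abundant in every library, as the label quadriceps requires, the slow fibre markers were low in C, D and A, and no marker in these lists was at 0 throughout. Values from a fit with a slow fibre score of each library as covariate are given below for selected genes and lists only. Not repeated there are the log2 fold changes of Crls1 (0.13, and 0.26 with the score) and Ptpmt1 (0.05 and 0.11). Chchd3 moved the other way (0.25 and 0.19). The median of the cristae and cardiolipin genes described here went from 0.05 to 0.11. The part of fast fibres, fat or the other cell types was not tested. In such bulk libraries, fewer cells of a type and less RNA per cell cannot be told apart.

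The levels of the 9 genes in muscle differed far more from each other than between the genotypes. Per kilobase of exon, Chchd3 had the highest mean level over the 6 libraries, 201.8 CPM per kb, followed by Immt at 114.9. The apolipoprotein O family followed, with Apoo at 38.1 and Apool at 26.6 CPM per kb, whose ranges over the libraries overlapped. With the counts of Apoo-ps, an identical copy described below, added to it, Apoo would come to 100.3 CPM per kb. Among the enzymes, Crls1 (13.4) and Ptpmt1 (13.2) overlapped in range and stood above Pgs1 (3.53) and Tamm41 (2.95), which overlapped as well. Chchd6 was lowest at 1.51 CPM per kb, its range overlapping that of Tamm41, and the mean level of Chchd3 was 133.6 times that of Chchd6 on this scale. Ptpmt1 shares 1545 of its 3183 exonic bases (48.5%) with Kbtbd4 on the opposite strand, and how strand was treated in counting is not stated. Over the unshared 1.64 kb alone, if all its counts fell there, its level would be 25.7 CPM per kb. Immt and Chchd3 together supplied 79% (E) to 83.5% (B) of the counts on the 9 genes.

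Immt, on chromosome 6 (GRCm38, chr6:71831091-71875266, plus strand; Entrez 76614), is the core MICOS subunit and was lower in miDrp1KO muscle in all libraries. Controls B, C and D had 404.1, 303.2 and 352.8 CPM (mean 353.4 ± 50.4, SD, n = 3), and miDrp1KO A, E and F had 274.7, 263.7 and 290.5 CPM (276.3 ± 13.5). The lowest control, C, exceeded the highest knockout, F, by a small margin, and the controls spread more widely than the knockouts. The log2 fold change was -0.36 ± 0.19 (SE; 95% interval -0.77 to 0.06), and neither edgeR (unadjusted p = 0.0889, adjusted p = 0.525) nor the exact permutation test (p = 0.1, its smallest) put it past the threshold. Adding the slow fibre score of each library to the fit gave -0.42, with an unadjusted p of 0.0401 and an adjusted p of 0.482.

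Chchd3 (chr6:32792207-33060273, minus strand; Entrez 66075), which binds Immt, lay on the other side. Its level was 422.5, 421.7 and 401.0 CPM in controls B, C and D (415.0 ± 12.2, SD), compared with 443.9, 474.4 and 562.8 CPM in miDrp1KO A, E and F (493.7 ± 61.8). The 3 controls were close together and library F was the highest of all. The log2 fold change was 0.25 ± 0.19 (SE; 95% interval -0.17 to 0.68; edgeR adjusted p = 0.664, exact permutation p = 0.1). Because Immt and Chchd3 lay on opposite sides, their ratio separated the genotypes: the log2 ratio of Chchd3 to Immt was 0.06, 0.48 and 0.18 in controls B, C and D (0.24 ± 0.21, SD) and 0.69, 0.85 and 0.95 in miDrp1KO A, E and F (0.83 ± 0.13). This ratio of CPM does not depend on how the libraries are scaled. It was chosen after the values of both genes had been seen, so it is given without a test.

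Chchd6 (chr6:89383146-89595652, minus strand; Entrez 66098), the close relative of Chchd3 in the same complex, was scarce and its values were the least precise among the MICOS genes of this part of the complex. It had 19, 22 and 103 counts in controls B, C and D, or 0.90, 1.603 and 1.72 CPM, and 28, 69 and 61 counts in miDrp1KO A, E and F, or 1.36, 1.69 and 2.93 CPM. The groups overlapped, with library B lowest and library F highest. The log2 fold change of 0.48 ± 0.39 (SE) had a 95% interval from -0.37 to 1.34 (edgeR adjusted p = 0.680), so at this depth neither no difference nor a doubling was outside it. Leaving out 1 library moved the value to 0.14 (without F), 0.27 (without B) or 0.71 (without D). The log2 ratio of Chchd6 to Chchd3 was -8.26 ± 0.54 (SD) in controls and -8.02 ± 0.39 in miDrp1KO, with overlapping groups.

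**Figure D2:**
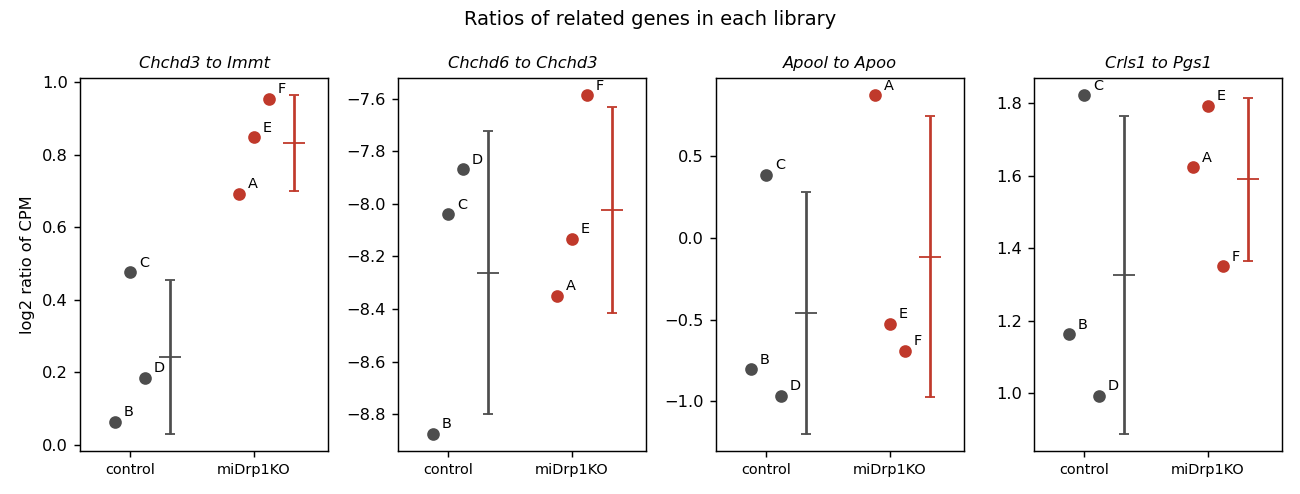
Log2 ratio of CPM between related genes in each control (grey) and miDrp1KO (red) library, with library letters and the mean and SD; each panel has its own axis, which does not start at 0. The Chchd3 to Immt ratio is apart between the groups (at most 0.48 in controls, at least 0.69 in miDrp1KO), and the other 3 ratios overlap.

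Apool (chrX:112311352-112372755, plus strand; Entrez 68117), a MICOS subunit that binds cardiolipin, was higher in every miDrp1KO library. Controls B, C and D had 32.4, 32.9 and 30.4 CPM (31.9 ± 1.34, SD, n = 3), and miDrp1KO A, E and F had 39.3, 47.3 and 34.7 CPM (40.4 ± 6.35). The controls agreed within a few percent, and library F came closest to them. Its log2 fold change of 0.34 ± 0.16 (SE; 95% interval -0.01 to 0.70) had the lowest p of the 9 genes, 0.0563 unadjusted and 0.467 adjusted by edgeR, with an exact permutation p of 0.1. A correction for exonic length and GC content, added after the data were seen, lowered it to 0.14 (adjusted p = 0.764). Leaving out library E lowered it to 0.22 (edgeR unadjusted p = 0.220), and leaving out F raised it to 0.46 (edgeR unadjusted p = 0.0115). Among the tenth of genes with the shortest exonic length (median 1.06 kb) the median log2 fold change was 0.15, against -0.03 to 0.03 in the other length classes. Apool (1.36 kb) falls in that shortest class, as do Chchd6, Apoo and Tamm41, and the part of length in its value was not tested apart from that correction.

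Apoo (chrX:94367010-94417093, plus strand; Entrez 68316) is the relative of Apool in the same part of MICOS, and it has an identical copy elsewhere in the genome. The processed pseudogene Apoo-ps, on chromosome 13 (chr13:107414144-107414729, minus strand; Entrez 621156), matches bases 348 to 933 of the 1218-base Apoo transcript without a mismatch over all 586 of its bases, all of them within the coding part of Apoo. The first 60 bases of that match, taken from the GRCm38 transcripts, show why a read from there cannot be placed on either gene by its sequence.
Apoo bases 348 to 407: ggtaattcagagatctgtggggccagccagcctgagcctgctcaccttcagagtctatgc
Apoo-ps bases 1 to 60: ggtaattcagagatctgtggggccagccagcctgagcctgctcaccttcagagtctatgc
Both genes are listed in the deposited counts, and how reads that match both were counted is not stated. Apoo was chosen for this closer look, and Apoo-ps named, after their values had been seen.

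Apoo counted alone was at 56.6, 25.1 and 59.3 CPM in controls B, C and D against 21.5, 68.1 and 56.0 CPM in miDrp1KO A, E and F. Within both genotypes 1 library, C and A, stood far below the other two. The log2 fold change was 0.04 ± 0.53 (SE; 95% interval -1.29 to 1.37; edgeR adjusted p = 0.987, exact permutation p = 1), and the dispersion of Apoo was higher than that of 93% of the tested genes. The CPM of Apoo-ps were 66.3, 90.2 and 70.9 CPM in controls B, C and D against 84.4, 66.4 and 90.3 CPM in miDrp1KO A, E and F. They were high in C and A, where Apoo was low, and also in F, where Apoo was not. Apoo took 46.05% of the counts on both in B, 21.8% in C, 45.6% in D, 20.3% in A, 50.6% in E and 38.3% in F. The 95% exact binomial interval for library C, 19.8% to 23.9%, does not meet that for B, 44.1% to 48.0%, though both are controls (these intervals cover counting error only). Added together, Apoo and Apoo-ps came to 122.9, 115.3 and 130.2 CPM in B, C and D (122.8 ± 7.44, SD) and to 105.9, 134.5 and 146.3 CPM in A, E and F (128.9 ± 20.8). The coefficient of variation among controls was 40.4% for Apoo alone and 6.06% for the sum, and among miDrp1KO 49.8% and 16.2%. The sum gave a log2 fold change of 0.07 ± 0.18 (SE; 95% interval -0.33 to 0.47; edgeR adjusted p = 0.918, exact permutation p = 0.7), an interval much narrower than that of Apoo alone and still on both sides of 0. Libraries C and A also had the lowest slow fibre scores, a mean log2 CPM over the slow fibre markers of 1.94 and 2.49 against 3.19 to 6.39 in the others, and with that score in the fit Apoo alone came to -0.60 (unadjusted p = 0.0489, adjusted p = 0.500). The log2 ratio of Apool to Apoo, -0.46 ± 0.74 (SD) in controls and -0.12 ± 0.86 in miDrp1KO, overlapped between groups and carries the same uncertainty.

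**Figure D3:**
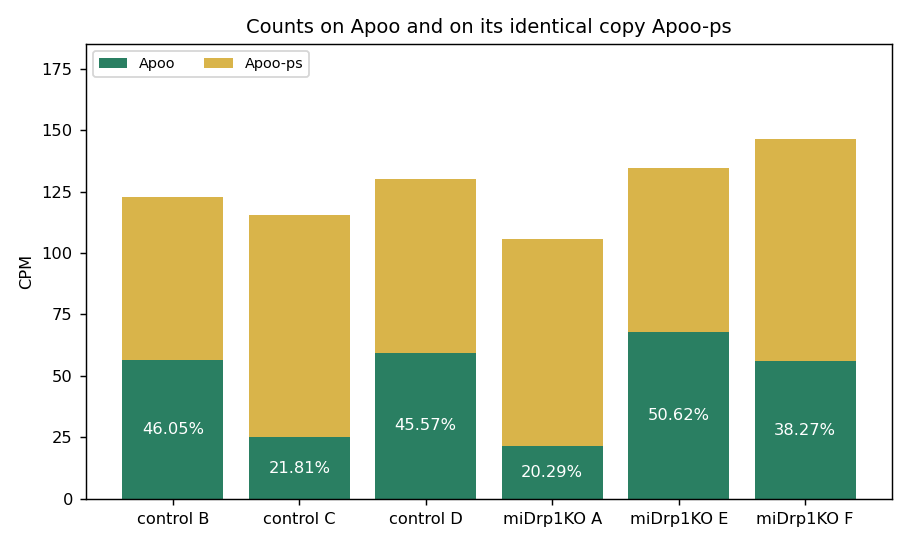
Stacked bars of CPM on Apoo (green) and on its identical copy Apoo-ps (yellow) in each library, with the percentage of the counts on both that was given to Apoo. The share runs from 20.3% in A to 50.6% in E, while the height of the stack runs from 105.9 to 146.3 CPM.

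For all 4 enzymes of cardiolipin synthesis the libraries of the groups overlapped, and their log2 fold changes lay between -0.14 and 0.13. Leaving out 1 library moved Crls1 to 0.04 (without B) or 0.26 (without C). It turned the sign of Tamm41 (-0.11 without C), Pgs1 (0.05 without D) and Ptpmt1 (-0.0014 without B). Tamm41 (chr6:115004381-115037929, minus strand; Entrez 68971), at the head of the pathway, had 3.55, 2.77 and 3.86 CPM in controls B, C and D against 3.65, 3.36 and 3.50 CPM in miDrp1KO A, E and F. The knockouts lay inside the range of the controls, and the log2 fold change was 0.03 ± 0.23 (SE; 95% interval -0.49 to 0.54; edgeR adjusted p = 0.978). Pgs1 (chr11:117986297-118024011, plus strand; Entrez 74451), which commits CDP-diacylglycerol to this pathway, had 9.90, 8.96 and 12.8 CPM in B, C and D against 9.96, 8.16 and 10.9 CPM in A, E and F. Library D was highest and E lowest, and the log2 fold change was -0.14 ± 0.20 (SE; 95% interval -0.58 to 0.30; edgeR adjusted p = 0.836).

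Ptpmt1 (chr2:90910713-90918050, minus strand; Entrez 66461), the phosphatase of the pathway, had 37.6, 41.1 and 45.7 CPM in controls B, C and D against 45.8, 39.2 and 43.5 CPM in miDrp1KO A, E and F. The ranges nearly coincided. Its log2 fold change was 0.05 ± 0.15 (SE), and its 95% interval, -0.29 to 0.39, was the narrowest among the 9 genes (edgeR adjusted p = 0.940). Crls1 (chr2:132846650-132866786, plus strand; Entrez 66586), cardiolipin synthase itself, had 22.2, 31.7 and 25.5 CPM in B, C and D (26.5 ± 4.84, SD) and 30.7, 28.3 and 27.8 CPM in A, E and F (28.9 ± 1.56). The 3 knockouts sat close together within the spread of the controls. The log2 fold change was 0.13 ± 0.17 (SE; 95% interval -0.24 to 0.50; edgeR adjusted p = 0.806, exact permutation p = 0.5). The log2 ratio of Crls1, the last enzyme, to Pgs1 was 1.33 ± 0.44 (SD) in controls and 1.59 ± 0.22 in miDrp1KO, and the groups overlapped. A p above the threshold does not show that these transcripts were equal: the intervals leave room for differences of 0.39 (Ptpmt1) to 0.58 (Pgs1) on the log2 scale.

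**Figure D4:**
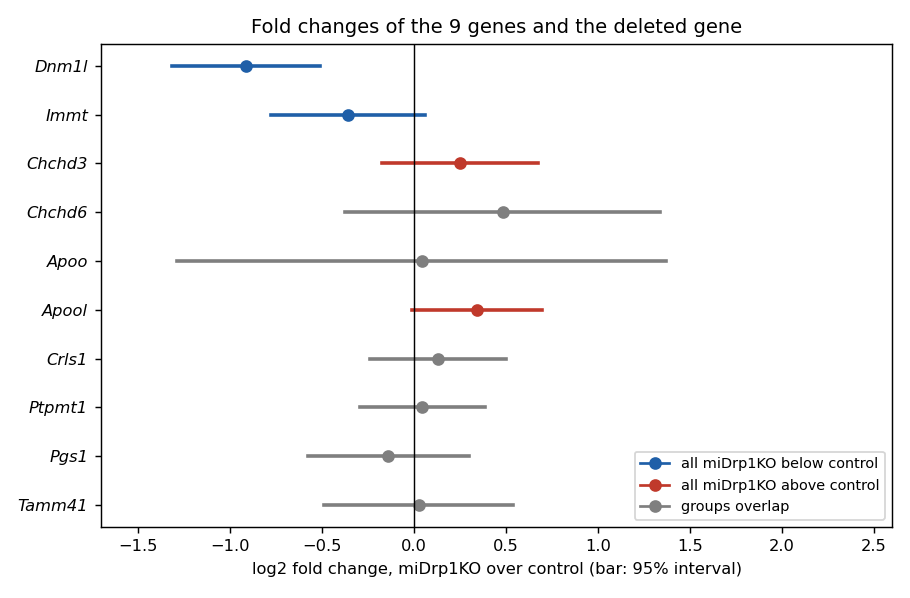
Log2 fold change (miDrp1KO over control, edgeR) of Dnm1l and the 9 genes, with the 95% interval as a bar; blue marks genes with every miDrp1KO library below every control, red those with every miDrp1KO library above, and grey those whose groups overlap. The bars of all 9 genes cross 0, that of Apoo from -1.29 to 1.37, and the bar of Dnm1l does not.

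The rest of the machinery was described from lists of related genes. The other MICOS subunits and their outer membrane partners (the MIB complex) comprised 7 tested genes, with a median log2 fold change of 0.22 that came to 0.06 without library F, 0.35 without library A and 0.08 with the slow fibre score in the fit. None was called by edgeR, DESeq2 or limma voom, and by edgeR 1 was higher and 1 lower at an unadjusted p under 0.05 (over all genes 4.68% and 6.22%). The first was 2410015M20Rik, which encodes Mic13, the subunit that links Mic10 to the core: it was at 14.8 ± 0.75 CPM (SD, n = 3) in controls and 26.2 ± 8.63 CPM in miDrp1KO, a log2 fold change of 0.82 ± 0.22 (SE; edgeR unadjusted p = 0.00349, adjusted p = 0.362), with no overlap. The second was Dnajc11, a partner of the complex, at 35.5 ± 6.38 and 26.9 ± 2.85 CPM (log2 fold change -0.40, unadjusted p = 0.0431, adjusted p = 0.445, edgeR), with overlapping groups. The next by p were Mtx2 of the outer membrane (0.42, unadjusted p = 0.0519) and Minos1, which encodes Mic10 (105.9 ± 8.75 and 123.9 ± 19.8 CPM; 0.23, unadjusted p = 0.237). With the slow fibre score in the fit, 2410015M20Rik came to 0.59, Mtx2 to 0.24 and Minos1 to 0.08. With the length and GC correction they came to 0.59, 0.36 and 0.23. The exons of 2410015M20Rik measure 0.755 kb, and the part of length in its value was not tested apart from that correction. Its value was 0.58 without library F (35.0 CPM, its highest) and 1.06 without library A. DESeq2 gave 2410015M20Rik an adjusted p of 0.0787. Of these 4, 2410015M20Rik alone was separated between the groups, and the MICOS genes as listed here thus lay on both sides of 0.

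Among 12 other genes that shape the inner membrane, the median log2 fold change was -0.08, a value that ranged from -0.18 (without library F, or with the ribosomal RNA share as covariate) to 0.02 (without library E, or with upper quartile scaling) and was positive under 4 alternatives. In edgeR 2 genes were higher and 1 lower at an unadjusted p under 0.05, against 4.68% and 6.22% of all tested genes. These 3, named after their values had been seen, were Atp5k (61.1 and 78.3 CPM; 0.36, adjusted p = 0.446) and Atp5l (40.1 and 59.9 CPM; 0.58, adjusted p = 0.392), subunits by which ATP synthase pairs up along crista edges, and Letm1 (47.1 and 31.4 CPM; -0.59, adjusted p = 0.390), an inner membrane ion exchange protein. The libraries of the groups did not overlap for any of them, as in 18% of all tested genes. The count of 3 at an unadjusted p under 0.05 in edgeR fell to 1 with the length and GC correction (1921 of 14833 over all genes). It was also 1 with the ribosomal RNA share as covariate, without library B or without library D, and 4 without library A. With the length and GC correction 2 of the 12 lay above 0 and 10 below, against 5 and 7 in the main fit. Opa1, the inner membrane fusion GTPase, also chosen after its values were seen, was at 147.1 and 123.4 CPM (-0.25, unadjusted p = 0.215) with overlapping groups.

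For the supply, transport and remodelling of cardiolipin, 13 of 17 tested genes had a log2 fold change below 0 and the median was -0.15, beside 7911 of 16483 below 0 and a median of 0.02 over all tested genes. That median ran from -0.06 with upper quartile scaling and -0.10 without control B (11 of 17 below 0) to -0.22 without control C. In edgeR 2 were lower and 1 higher at an unadjusted p under 0.05, or 11.8% and 5.88%, against 6.22% and 4.68% of all tested genes, and edgeR, DESeq2 and limma voom called none of the 17. Gpam, the mitochondrial acyltransferase that starts glycerolipid synthesis, was at 224.6, 192.5 and 231.7 CPM in controls B, C and D against 133.9, 154.6 and 119.5 CPM in miDrp1KO A, E and F. The groups were well apart, with a log2 fold change of -0.67 ± 0.18 (SE; edgeR unadjusted p = 0.00368, adjusted p = 0.362; adjusted p = 0.0549 in DESeq2). Pla2g6, a phospholipase that releases fatty acids from phospholipids, showed the same separation at a lower level, with 15.5, 16.8 and 14.2 CPM in B, C and D against 10.01, 7.94 and 10.9 CPM in A, E and F (log2 fold change -0.69 ± 0.18, SE; edgeR unadjusted p = 0.00277, adjusted p = 0.362). In DESeq2 the adjusted p of Pla2g6 was 0.0964.

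Gpam is also abundant in fat cells, and the adipocyte markers were lower in the same libraries, as given above; the part of fat cells in its value was not tested. Dnajc19, a partner of prohibitins that acts on cardiolipin remodelling, was the gene on the other side, at 29.2, 33.9 and 34.7 CPM in controls B, C and D against 43.3, 49.3 and 47.0 CPM in A, E and F. It did not overlap between groups (log2 fold change 0.51 ± 0.15, SE; edgeR unadjusted p = 0.00605, adjusted p = 0.379). DESeq2 gave Dnajc19 an adjusted p of 0.1325. Nme4, a kinase of the inner membrane that binds cardiolipin, followed with 2.34 ± 0.60 (SD) and 3.31 ± 0.27 CPM (0.51, unadjusted p = 0.0845). Taz, the acyltransferase that gives cardiolipin its mature acyl chains, was also chosen after its values were seen and was at 25.3 and 23.4 CPM (-0.12, unadjusted p = 0.427), with every miDrp1KO library below the controls. Of the 17 genes of this list, 4 had every miDrp1KO library below the controls, 2 had every one above and 11 overlapped. Over all tested genes these shares were 10.3% below and 7.67% above.

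**Figure D5:**
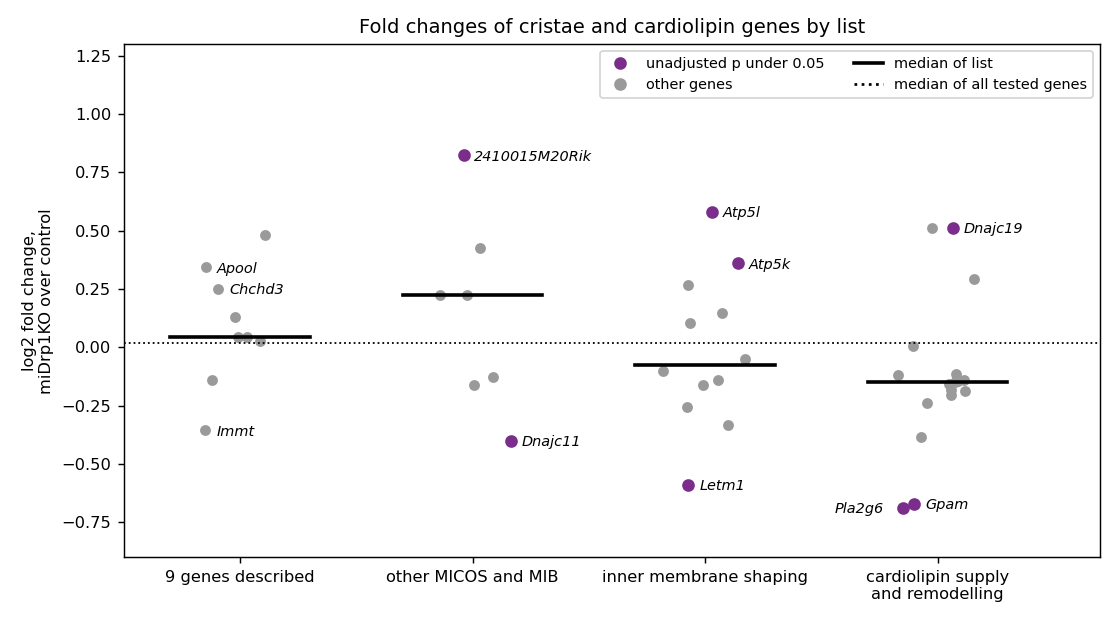
Log2 fold change (miDrp1KO over control, edgeR) of each gene in the 4 lists, with the list median as a bar and the median of all tested genes (0.02) as a dotted line; purple marks an unadjusted p under 0.05. The 9 genes described hold no purple point and centre on 0.05, and the cardiolipin supply genes centre on -0.15.

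The 73 tested nuclear subunits of the respiratory chain, as a gauge of mitochondrial genes at large, had a median log2 fold change of 0.25, with 56 above 0 and 17 below. At an unadjusted p under 0.05 in edgeR, 15 were higher and 1 lower, or 20.5% and 1.37%, against 4.68% and 6.22% of all tested genes. In either direction, 16 of the 73 passed, which came to 30 without library A and 10 without control D. The count over all genes moved the same way, to 3115 of 17845 and 951 of 17750. Of these subunits edgeR and limma voom called 0, and DESeq2, which called 55 genes in all, called 3, named for that reason: Cox7b and Atp5j2, higher in miDrp1KO (0.77 and 0.86 in edgeR), and Sdha, lower (-0.87). The median over the 9 cristae and cardiolipin genes, 0.05, lay between that of the respiratory chain and that of the cardiolipin supply genes. The respiratory chain median came to 0.09 when length and GC content were corrected for, to 0.10 without library F and to 0.15 with the slow fibre score, and in the other direction to 0.38 without library A and 0.34 with upper quartile scaling.

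The genes whose pattern over the 6 libraries lay nearest to Immt, among 7171 genes with at least 10 CPM on average, were 0610009O20Rik, Suclg2 and Itga7, at root mean square distances of 0.037, 0.039 and 0.042 on the log2 scale. All 3 were lower in miDrp1KO on average, with log2 fold changes of -0.35, -0.37 and -0.36. Because they were picked for closeness to Immt over these libraries, fold changes near its own follow from the choice. These came to -0.20, -0.25 and -0.22 without control B and to -0.50, -0.50 and -0.51 without control C. For Crls1 the nearest were Crbn, Gnl3 and Trim23, at distances of 0.029, 0.030 and 0.042 and log2 fold changes of 0.13, 0.10 and 0.10. Their nearness to the value of Crls1 likewise follows from the choice. Without control B they came to 0.04, 0.02 and 0.03, and without control C to 0.29, 0.21 and 0.22. For Apoo, added after its values were seen, no pattern came as close, with Zfp967 nearest at 0.122, followed by Rpl21 (0.168) and Eef1g (0.169).

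The start regions of the genes were read from RefSeq (GRCm38.p6; 250 bases before to 50 after each start), which gave 10 windows for 8 of the 9 genes and none for Tamm41. The start on which a window was set can differ from the gene start given above. The gene Immt begins at 71831091, near the left end of its window. Pgs1 begins at 117986297, before its window (chr11:117986607-117986906). Motif positions below count from the start of the window concerned, with 250 bases before it. The windows of Immt, Chchd3 and Apool are shown because these were the genes whose libraries did not overlap between genotypes. Capitals mark every match, on either strand, to the letters searched: the NRF1 palindrome and its shorter form GCATGCGC, AAGGTCA (the estrogen-related receptors), GGGCGG (Sp1), and, added after the sequences were read, the NRF1 palindrome with any base in the fifth place, CCGGAAG (ETS factors) and CACGTG (E box).
Immt chr6:71831070-71831369, plus strand: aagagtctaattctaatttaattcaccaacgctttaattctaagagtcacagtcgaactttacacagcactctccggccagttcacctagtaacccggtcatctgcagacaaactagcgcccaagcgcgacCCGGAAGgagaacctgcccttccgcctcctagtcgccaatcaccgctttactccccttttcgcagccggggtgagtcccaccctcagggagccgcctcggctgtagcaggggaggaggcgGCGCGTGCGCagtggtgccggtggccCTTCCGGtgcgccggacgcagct
Chchd3 chr6:33060211-33060510, minus strand: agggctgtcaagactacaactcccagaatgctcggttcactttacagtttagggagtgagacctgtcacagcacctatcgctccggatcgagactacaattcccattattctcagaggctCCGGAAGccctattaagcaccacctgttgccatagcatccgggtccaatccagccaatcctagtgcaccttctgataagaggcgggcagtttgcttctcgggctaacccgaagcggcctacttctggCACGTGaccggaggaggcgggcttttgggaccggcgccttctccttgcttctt
Apool chrX:112311102-112311401, plus strand: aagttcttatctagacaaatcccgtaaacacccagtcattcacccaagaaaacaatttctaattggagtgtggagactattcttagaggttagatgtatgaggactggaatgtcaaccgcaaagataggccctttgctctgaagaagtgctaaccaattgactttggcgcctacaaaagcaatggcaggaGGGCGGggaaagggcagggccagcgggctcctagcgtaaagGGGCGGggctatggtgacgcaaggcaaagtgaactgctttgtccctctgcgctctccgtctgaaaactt
Immt, the gene lower in miDrp1KO, has CCGGAAG at -119 and 27 from the start and the looser NRF1 palindrome at 1. Chchd3 has CCGGAAG at -130 and CACGTG at -3, and Apool has GGGCGG at -60 and -19. The 3 windows share no motif in full, although CCGGAAG occurs in those of Immt and Chchd3, whose values lay on opposite sides. Matches also occur in genes whose groups overlapped: Pgs1 has GGGCGG at -160, the looser NRF1 palindrome at -58 and CCGGAAG at -2, and Crls1 has CACGTG at -203. Among 32851 mouse promoters of the same length, 8.86% hold CCGGAAG, 7.15% CACGTG, 35.7% GGGCGG and 4.6% the looser NRF1 palindrome, which includes the strict one. AAGGTCA, in 4.72% of promoters, occurs in those of Ptpmt1 (-59) and Chchd6 (-171). The strict palindrome (0.971% of promoters) and GCATGCGC (2.71%), which lies within it, occur in none of the 10 windows, which says only that these letters are not there.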

How the data were processed

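Total RNA of quadriceps muscle from 3 control and 3 miDrp1KO mice was made into stranded libraries with removal of ribosomal RNA (TruSeq Stranded, RiboZero Gold), which were sequenced in 2 pools. The authors aligned reads to GRCm38, counted them with Rsubread and deposited a table of raw counts for each library. The pool of each library, the strand setting of the counting and the handling of reads that match several genes are not stated in the sources used here. Groups came from the genotype given for each library, and replicates are separate libraries named by letter.

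The test was edgeR's (version 4.0.16, R 4.3.3), with TMM scaling, the filterByExpr filter on genotype, a quasi-likelihood fit in its robust form and p-values adjusted by Benjamini-Hochberg across 16483 genes at a threshold of 0.05, and CPM were computed with TMM library sizes. Two-sided exact permutation tests over the 20 splits of the mice compared the mean CPM of the groups for each gene. Alternatives used DESeq2 1.42.0, limma 3.58.1 voom, other scalings, filters and covariates, and each library left out. Depth was 13989588 to 62042255 counts per library. Exonic lengths, strands, transcripts and the positions of copies came from GENCODE M21. The positions of the genes described and the start regions came from RefSeq. Near-identical copies were found with BLAST 2.17.0 (at least 85% identity over 100 bases). The script was tested on simulated data.

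The members and lists were chosen with earlier results of these data known. Named genes were the 9 members, Dnm1l, the genes of the other MICOS and of the cardiolipin supply lists with an unadjusted p under 0.05 or, where fewer than 4, the 4 lowest, and the 3 patterns nearest to Immt and to Crls1. Other genes are said to be chosen after their values were seen. No library was left out of the main results.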

Additional observations from a re-analysis of the deposited data

How the results depend on the processing

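With 3 mice per group the 95% intervals of the 9 genes reach at their farther end 0.39 (Ptpmt1) to 1.37 (Apoo) on the log2 scale, and none of the 9 was called under any of the 17 alternatives. Immt kept its direction under all 17 (-0.47 without control C to -0.23 without control B), as did Chchd3 (0.17 to 0.35), Chchd6 (0.14 without F to 0.71 without control D), Apool (0.14 to 0.46) and Crls1 (0.04 without control B to 0.26 without control C). At an unadjusted p under 0.05, Apool passed under 6 alternatives (RLE or upper quartile scaling, at least 10 counts in every library, ribosomal RNA genes and Lars2 left out, with the ribosomal RNA share as covariate, or without F), and Immt and Apoo with the slow fibre score. No paired analysis was made because nothing in the labels pairs a control library with a miDrp1KO library.

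The number of genes called, 2 in edgeR, was 55 in DESeq2 (which gave 7852 genes an adjusted p), 1 in limma voom, 8 with no filter, 4 with the slow fibre score and 1 with the ribosomal RNA share as covariate, 1796 by unadjusted p, and 1 (without E or without F) to 7 (without A) with a library left out. With a library left out, the genes at an unadjusted p under 0.05 ran from 951 of 17750 (without control D) to 3115 of 17845 (without miDrp1KO A). The median of the 9 genes, 0.05, was 0.14 with upper quartile scaling, where that of all genes was 0.11, 0.15 with the ribosomal RNA share, and 0.019 (without control C) to 0.16 (without control D) with a library left out.

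Among the lists, the median of the inner membrane shaping genes (-0.08) turned to 0.017 with upper quartile scaling, 0.007 without B, 0.005 without A and 0.024 without E, and lay farther below 0 at -0.18 without F and with the ribosomal RNA share and at -0.13 with length and GC. Genes whose values changed sign were Apoo (-0.014 in limma voom, -0.60 with the slow fibre score, -0.12 with the length and GC correction, and from -0.28 without C or without E to 0.42 without A, -0.05 without F), Tamm41 (-0.026 in voom, -0.081 with length and GC, -0.11 without C to 0.16 without D), Ptpmt1 (-0.0014 without B to 0.14 without D), Pgs1 (-0.26 without C to 0.054 without D), Apoo-ps (-0.021 with the ribosomal RNA share), Trim23 (-0.074 with length and GC), and the Apoo neighbours Zfp967 (-0.44) and Rpl21 (-0.24) with the slow fibre score. Leaving out a library also turned Zfp967 (-0.24 without E to 0.61 without A) and Eef1g (highest 0.21 without A). The cause of these changes was not tested.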

Other observations

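Apoo and other members also had further copies or overlaps. Gm19617, an unprocessed pseudogene on chromosome 5 (chr5:148456838-148457145, GRCm38), matches Immt with 94.9% identity over 315 bases and held 27 to 202 counts per library, against 4161 to 21179 for Immt. Tamm41 has a processed copy, Gm47742, with 96.9% identity over 414 bases that was not among the counted genes, so its reads could not be compared. Pgs1 shares 93 exonic bases (3.2%) with Dnah17 on the opposite strand. Apart from Apoo, no member matched another GENCODE transcript identically in the same direction. Gm19617, Gm47742, Gm17918, Gm17932, Dnah17, Gm44771 and Gm17661 are named from the sequence comparison, not by their values.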
